A study of Homo sapiens with 6 samples.

Results

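CYP1A1 and CYP1B1, the best known target genes of the aryl hydrocarbon receptor, and KYNU, which encodes kynureninase, were picked by gene symbol from a deposited table of 403 genes, so the account covers 3 genes of 403. Their values in the comparison of ginkgolic acid with DMSO were known when they were picked. Those values are therefore given as a description, and no test of these genes is reported. The cells were HCCLM3, a human hepatocellular carcinoma line labelled as wild type. One group had received ginkgolic acid, a salicylic acid with a long alkyl chain found in Ginkgo, at 10 µM for 24 h, and the other the solvent DMSO for the same 24 h. Each group had 3 RNA-seq libraries. All 6 came from 1 line, and nothing in the labels shows whether the replicates were separate cultures, so the spread between libraries may be technical. Since these are bulk libraries, fewer cells with a transcript and less of it per cell cannot be told apart.

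The aryl hydrocarbon receptor is a transcription factor that is held in the cytosol by chaperones until it binds a planar aromatic ligand. It then enters the nucleus, pairs with ARNT and binds DNA sites with the core GCGTG. CYP1A1 and CYP1B1 are monooxygenases that oxidise polycyclic aromatic hydrocarbons and oestrogens, and both are induced through this receptor. In the normal liver CYP1A1 is inducible, whereas CYP1B1 is best known from tissues outside the liver and from tumours. Kynureninase belongs to tryptophan breakdown. It cleaves kynurenine to anthranilic acid and 3-hydroxykynurenine to 3-hydroxyanthranilic acid, on the way to NAD, and kynurenine itself has been described as a ligand of the receptor.

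CYP1A1 lies on chromosome 15 (74719542 to 74725610, minus strand), CYP1B1 on chromosome 2 (38066973 to 38109902, minus strand) and KYNU on the long arm of chromosome 2 (142877498 to 143055832, plus strand), all on GRCh38 as in the deposited table. The RefSeq promoter table (GRCh38.p14) matched 2 of the 3 genes, CYP1A1 and KYNU, and the receptor's core site was looked for in the 250 bases before the RefSeq start of each. RefSeq starts CYP1A1 at 74725528 and KYNU at 142877664, whereas the outermost GENCODE transcripts, CYP1A1-201 and KYNU-201, start 82 and 166 bases further upstream. The inner 82 and 166 bases of these windows therefore lie in an exon of those transcripts. The sequences shown are the parts before every annotated start, 168 bases for CYP1A1 and 84 for KYNU, and 30 bases around the CYP1A1 match, to let the letters of both genes be compared. They are written 5′ to 3′ on the strand of the gene, and capitals mark the receptor core GCGTG.
CYP1A1 before every annotated start (chr15:74725611-74725778, minus strand): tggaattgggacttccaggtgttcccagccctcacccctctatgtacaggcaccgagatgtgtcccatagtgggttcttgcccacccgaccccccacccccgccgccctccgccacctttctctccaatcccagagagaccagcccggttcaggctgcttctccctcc
CYP1A1 core match (chr15:74725568-74725597, minus strand): ccagggaaggagGCGTGgccacacgtacaa
KYNU before every annotated start (chr2:142877414-142877497, plus strand): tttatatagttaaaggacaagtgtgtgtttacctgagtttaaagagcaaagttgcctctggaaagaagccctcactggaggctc
The CYP1A1 window held 1 match to GCGTG, at 74725581 to 74725585, and the TATA element TATAAA at 74725555 to 74725560. Counted from the RefSeq start these are positions -57 to -53 and -32 to -27, and both lie downstream of the start of CYP1A1-201. The KYNU window held no match to GCGTG on either strand. It had a TATAAA at 142877598 to 142877603, positions -66 to -61 from the RefSeq start and downstream of the start of KYNU-201. GCGTG, searched on both strands, occurred in 31.9% of 27305 promoters over the same 250 bases and in 36.3% over the 300 bases that reach 50 bases past the start. TATAAA, searched on the gene's strand only, occurred in 7.17% of promoters over the 250 bases. The longer form TNGCGTG, which contains the core, was not found in either window and occurred in 4.53% of promoters. Of 19 receptor target genes listed from textbook knowledge, 16 matched the promoter table, CYP1A1 among them, and 8 held GCGTG in the 250 bases. The CYP1A1 window was 62.4% G and C with 10 CpG pairs, and the KYNU window 42.4% with 1, against medians of 58% and 11 over all promoters. These matches describe letters in a short window and say nothing of binding. DNA further upstream was not searched, so sites there would have been missed.

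Values are normalised read counts, that is read counts divided by a size factor for each library. CYP1A1 had 7.01, 7.63 and 15.0 normalised read counts in DMSO replicates 1, 2 and 3. With ginkgolic acid it had 53.0, 58.6 and 50.9. The groups did not overlap, DMSO replicate 3 stood above the other DMSO libraries, and the lowest ginkgolic acid library was 3.40 times the highest DMSO library. The means were 9.87 ± 4.43 and 54.2 ± 4.01 (SD, n = 3 each), a 5.49-fold difference. Only 30 reads in all lay behind the DMSO values and 162 behind the ginkgolic acid values. Taking counting error alone, the ratio of reads had an exact 95% interval of 3.70 to 8.39. Reads without molecular identifiers are not independent molecules, so such intervals cover counting error only.

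CYP1B1 had 1461, 1535 and 1354 normalised read counts in the DMSO libraries. With ginkgolic acid it had 3875, 4219 and 3883. The groups were far apart, with the lowest ginkgolic acid library at 2.52 times the highest DMSO library. Ginkgolic acid replicate 2 was the highest of its group. Its 95% interval from counting error was 4088 to 4354, against 3750 to 4002 for replicate 1 and 3770 to 4000 for replicate 3. The means were 1449.9 ± 91.1 and 3992.5 ± 196 (SD, n = 3 each), a 2.75-fold difference, with 4426 and 11966 reads behind them. Counting error alone gave an interval of 2.65 to 2.84 for the ratio of reads. The libraries varied more than counting alone gives: the coefficient of variation was 6.28% in DMSO and 4.92% with ginkgolic acid, against 2.60% and 1.58% from counting. For CYP1A1 the corresponding values were 44.9% against 31.6% in DMSO and 7.39% against 13.6% with ginkgolic acid.

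KYNU, the tryptophan enzyme, differed in the opposite direction. It had 3182, 3563 and 3397 normalised read counts in the DMSO libraries. With ginkgolic acid it had 1657, 1499.8 and 1372. All ginkgolic acid libraries lay below all DMSO libraries, and the lowest DMSO library was 1.92 times the highest ginkgolic acid library. The means were 3381 ± 191 and 1509 ± 143 (SD, n = 3 each), so the DMSO level was 2.24-fold the ginkgolic acid level, on 10320 and 4507 reads. The interval from counting error was 2.18 to 2.34.

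**Figure D1:**
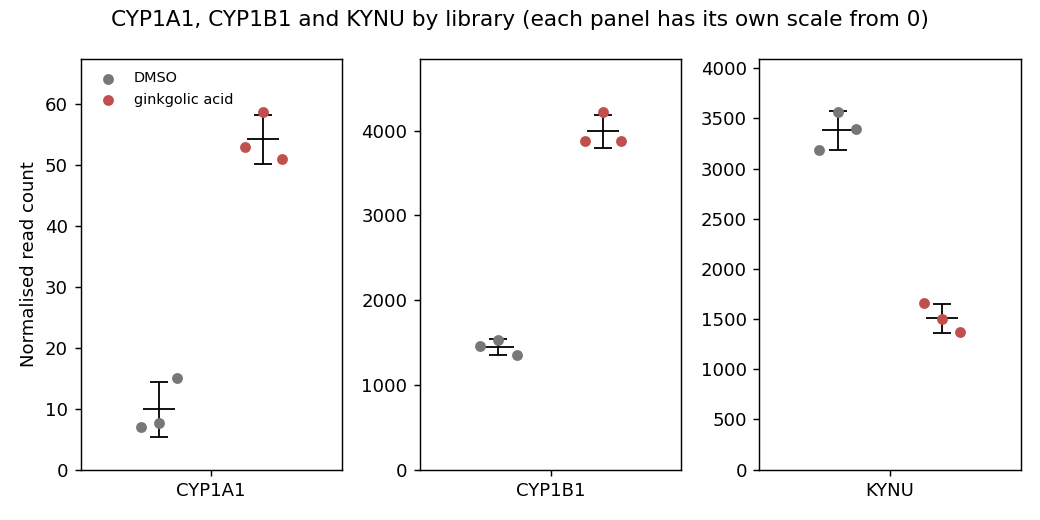
Normalised read counts of CYP1A1, CYP1B1 and KYNU in the 3 DMSO (grey) and 3 ginkgolic acid (red) libraries, each panel on its own linear axis from 0; points are libraries in the order of replicates 1 to 3, horizontal bars are means and whiskers are SD. CYP1A1 goes from a mean of 9.87 to 54.2, CYP1B1 from 1449.9 to 3992.5 and KYNU from 3381 to 1509, and in no panel do the groups overlap.

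No overlap between groups was seen in any of the 3 genes. That holds for 98.3% of the 403 genes of the table, which had been selected for their difference, so it says nothing particular to these 3. By the values in the authors' deposited table, genes had entered it with adjusted p under 0.05 and log2 fold changes beyond 1 in size. A limma fit over the table called 100% of them at an adjusted p under 0.05, 62.8% higher and 37.2% lower. The authors' deposited table gives log2 fold changes of 2.46 for CYP1A1, 1.46 for CYP1B1 and -1.16 for KYNU. On the scale of log2(normalised read count + 1) the differences were 2.41 (SE 0.32), 1.46 (SE 0.07) and -1.17 (SE 0.09). When the libraries were rescaled by their median ratio over the genes of the table, log2 differences fell by 0.87 at the median, and those of the 3 genes became 1.56, 0.56 and -2.07. Under that rescaling the limma fit called 61 of the 403 genes higher and 150 lower, in place of 253 and 150. The reference of this scaling is genes that had been selected for their change.

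The 3 genes stood at different places in the table. CYP1A1 had a log2 fold change with rank 6 among the 253 higher genes in the authors' deposited table and rank 103 of 403 by adjusted p-value. CYP1B1 had rank 100 of 253 by log2 fold change and rank 3 by adjusted p-value. KYNU had rank 104 of the 150 lower genes by the size of its log2 fold change and rank 10 by adjusted p-value. The adjusted p-values are the authors' own, for the contrast on which these genes were chosen, so the ranks are a description only. The reads in DMSO and with ginkgolic acid were 30 and 162 for CYP1A1, 4426 and 11966 for CYP1B1 and 10320 and 4507 for KYNU. In the authors' deposited table the median log2 fold change of the higher genes was 1.34 and that of the lower genes -1.30, so CYP1A1 and CYP1B1 lay above the middle of the higher genes and KYNU was nearer to 0 than the middle of the lower genes. By level in DMSO, KYNU had rank 3 of 403, CYP1B1 rank 13 and CYP1A1 rank 344. With ginkgolic acid CYP1B1 had rank 3, KYNU rank 14 and CYP1A1 rank 172. Restricted to the 19 genes averaging 1000 normalised read counts or more, CYP1B1 had rank 3 of 12 higher genes by log2 fold change and KYNU rank 2 of 7 lower genes in the authors' deposited table.

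**Figure D2:**
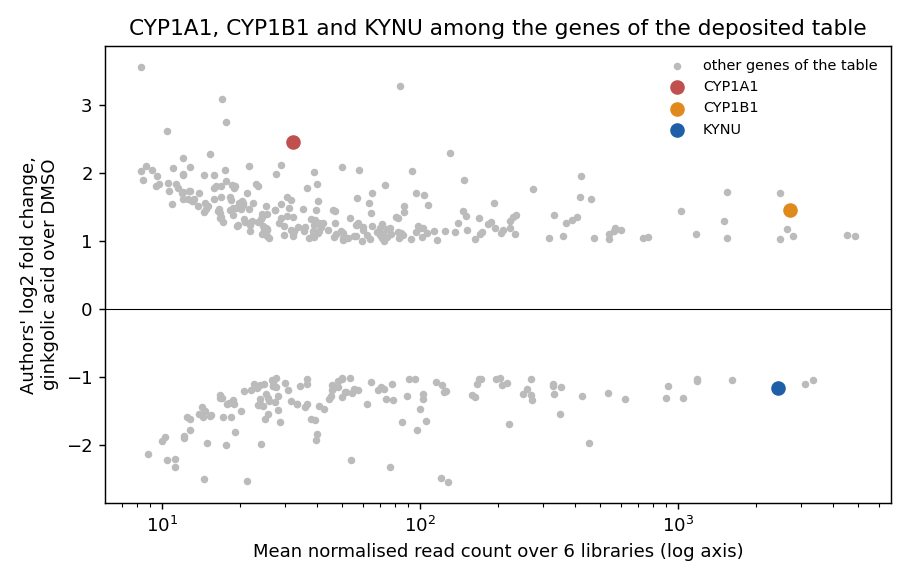
The authors' log2 fold change (ginkgolic acid over DMSO) against the mean normalised read count over 6 libraries (log axis) for the 403 genes of the deposited table. CYP1A1 (red, 2.46) lies among genes of low level, whereas CYP1B1 (orange, 1.46) and KYNU (blue, -1.16) lie at the high end of the level axis; the empty band around 0 is the authors' threshold.

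The baseline gap between CYP1A1 and CYP1B1 was wide. Within a library, CYP1B1 had 209, 201 and 90.4 times the normalised read count of CYP1A1 in DMSO replicates 1, 2 and 3. With ginkgolic acid the ratios were 73.1, 71.9 and 76.3. The ginkgolic acid libraries were close to each other and all lay below the DMSO libraries, but DMSO replicate 3 was nearer to them than to the other DMSO libraries. In that library 15 reads of CYP1A1 were counted, against 7 and 8 in DMSO replicates 1 and 2. The ratio of CYP1B1 to KYNU was 0.459, 0.431 and 0.398 in the DMSO libraries and 2.34, 2.81 and 2.83 with ginkgolic acid. KYNU thus had more normalised reads than CYP1B1 in every DMSO library and fewer in every ginkgolic acid library.

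**Figure D3:**
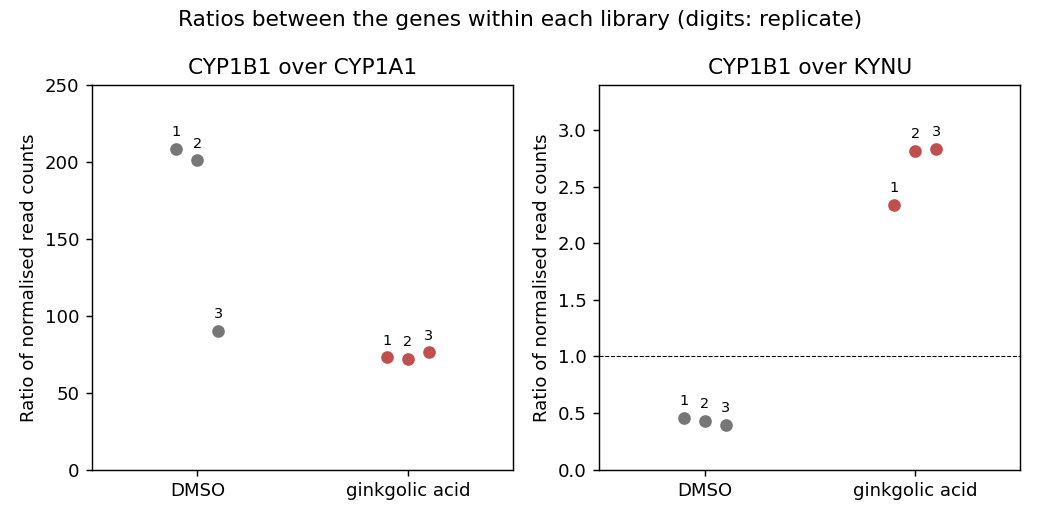
Ratios of normalised read counts within each library, with CYP1B1 over CYP1A1 on the left and CYP1B1 over KYNU on the right; digits give the replicate, axes start at 0 and the dashed line marks equal counts. The left ratio is 90.4 to 209 in DMSO and 71.9 to 76.3 with ginkgolic acid, and the right ratio is 0.398 to 0.459 in DMSO and 2.34 to 2.83 with ginkgolic acid.

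A longer transcript gives more reads, so levels of different genes were compared per kb of the deposited gene length, which is 3435 bases for CYP1A1, 6014 for CYP1B1 and 17600 for KYNU. In DMSO the level per kb was 241 ± 15.1 normalised read counts for CYP1B1, 192 ± 10.9 for KYNU and 2.87 ± 1.29 for CYP1A1 (SD, n = 3). With ginkgolic acid it was 664 ± 32.7 for CYP1B1, 85.8 ± 8.10 for KYNU and 15.8 ± 1.17 for CYP1A1. The order was therefore CYP1B1, KYNU, CYP1A1 in both groups. The libraries of neighbouring genes in that order did not overlap: in DMSO the lowest value of CYP1B1 was 225 and the highest of KYNU 202. Per kb, CYP1B1 exceeded CYP1A1 83.9-fold in DMSO and 42.1-fold with ginkgolic acid.

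The place of KYNU in that order depends on the transcript. Its deposited length equals all exons of 9 annotated transcripts joined together. In the GENCODE annotation 2 transcripts of KYNU are tagged as principal, KYNU-201 with 15316 bases and KYNU-203 with 1576 bases. If the shortest principal transcript of each gene is used (2174 bases for CYP1B1 and 2107 for CYP1A1), KYNU had 2145 ± 121 normalised read counts per kb in DMSO and CYP1B1 667 ± 41.9, so that KYNU was 3.22-fold higher. With ginkgolic acid the same lengths gave 958 ± 90.5 for KYNU and 1836 ± 90.3 for CYP1B1, so that CYP1B1 was 1.92-fold higher. CYP1A1 stayed the lowest under either length, at 4.68 ± 2.10 in DMSO and 25.7 ± 1.90 with ginkgolic acid. Which KYNU transcript the reads came from was not tested.

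Reads of CYP1A1 could be assigned without a competitor in the annotation. No other annotated gene overlaps it, and 0 of its 3704 distinct stretches of 50 bases occurred in a transcript of another gene on either strand. CYP1B1 is overlapped by CYP1B1-AS1 on the opposite strand, which shares 678 exon bases with it (11.3% of its exon length), by RMDN2 on the opposite strand (96 bases) and by RMDN2-AS1 on the same strand (69 bases). Of the 50-base stretches of CYP1B1, 9.66% also occurred in another gene. Whether counting used strand was not given in the sources used here, so some of these reads may belong to the overlapping genes. KYNU holds the processed pseudogene AC013444.2 on the opposite strand, with 122 shared exon bases, and 1.09% of its 50-base stretches occurred elsewhere. None of these overlapping genes was among the 403.

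The rest of the pathway was looked for with 11 gene lists of 127 distinct symbols, 126 of which matched the annotation. The deposited table is a selection: its p-values and adjusted p-values imply that 16104 genes were tested, of which 2.50% were selected, 1.57% as higher and 0.931% as lower. A gene outside the table was not analysed here, and its absence does not show that it was unchanged. Of the 19 receptor target genes only CYP1A1 and CYP1B1 were in the table, both higher and both chosen with their values known. The other 17, among them TIPARP and AHRR, which feed back on the receptor, and NQO1 and ALDH3A1, which are enzymes of the same response, were outside it.

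Of the 8 genes of the receptor machinery 1 was in the table, against 2.50% of all tested genes. It was ARNT2, which encodes a relative of the partner ARNT. It had 40.04, 42.9 and 23.96 normalised read counts in the DMSO libraries and 20.1, 9.77 and 14.9 with ginkgolic acid. The groups did not overlap, which held for 98.3% of the 403 genes of the table. They came close, as the lowest DMSO library was 1.19 times the highest ginkgolic acid library. The means were 35.6 ± 10.2 and 14.9 ± 5.18 (SD, n = 3 each), and the authors' deposited table has a log2 fold change of -1.25. AHR itself and ARNT were not in the table.

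Of the 17 genes of the kynurenine pathway KYNU was the single one in the table. The dioxygenases that open the pathway, IDO1, IDO2 and TDO2, the hydroxylase KMO, and HAAO and QPRT, which act after kynureninase, were outside it. None of the 13 genes for tryptophan transport and other uses of tryptophan was in the table.

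Of the 26 other cytochromes P450 and their electron donors 2 were in the table, both higher and at low counts. Among all tested genes 2.50% were in the table, and 62.8% of the table was higher. CYP2E1, which oxidises ethanol and other small molecules, had 8.01, 11.4 and 8.98 normalised read counts in the DMSO libraries and 24.4, 23.9 and 24.6 with ginkgolic acid. CYP4F2, a fatty acid omega-hydroxylase, had 3.003, 7.63 and 3.99 in the DMSO libraries and 17.0, 15.2 and 25.5 with ginkgolic acid. Neither gene's libraries overlapped between the groups, which held for 98.3% of the 403 genes of the table. NR1I2, the pregnane X receptor and 1 of 7 other xenobiotic receptors listed, had 31.0, 39.1 and 28.0 in the DMSO libraries and 77.4, 65.2 and 60.6 with ginkgolic acid. The authors' deposited table gives log2 fold changes of 1.36 for CYP2E1, 1.98 for CYP4F2 and 1.05 for NR1I2. None of the 19 matched genes of a list for conjugation of oxidised compounds was in the table. GSTM2 and SULT1B1, conjugating enzymes outside that list, were in it and higher. CYP2B7P, a P450 pseudogene outside the lists, was in it and lower. All of these were noticed after their values were seen.

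**Figure D4:**
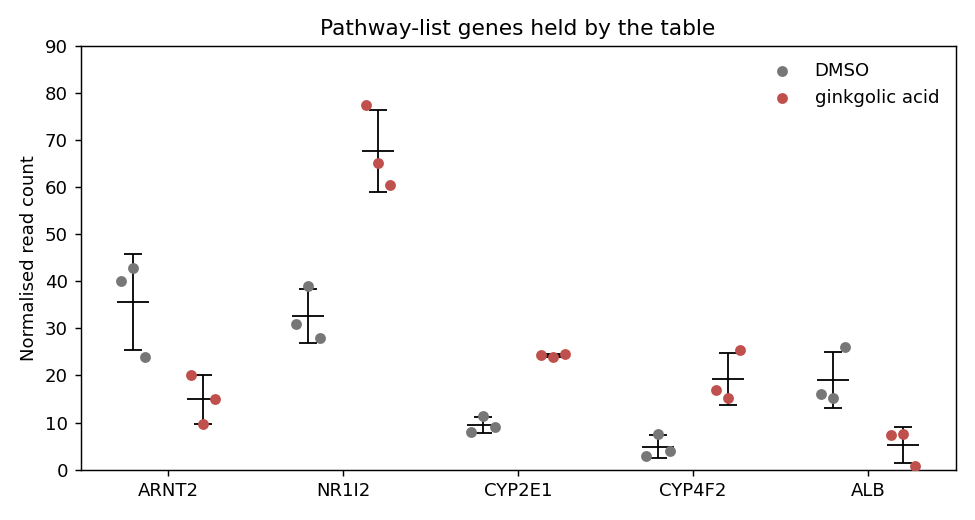
Normalised read counts of the 5 further genes of the lists that the table holds, in DMSO (grey) and ginkgolic acid (red) libraries on a linear axis from 0; points are libraries, horizontal bars are means and whiskers are SD (n = 3). ARNT2 and ALB are lower and NR1I2, CYP2E1 and CYP4F2 higher with ginkgolic acid, all with means under 70 normalised read counts.

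Of 12 hepatocyte markers only ALB (albumin) was in the table, at 16.01, 15.3 and 25.95 normalised read counts in the DMSO libraries and 7.42, 7.60 and 0.878 with ginkgolic acid. The last of these is 1 read. In all, ALB had only 58 reads in DMSO and 15 with ginkgolic acid. The other hepatocyte markers, and all 18 markers of leukocytes, fibroblasts and endothelium, were outside the table. The labelled cell type could therefore not be checked.

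Genes of the table whose values ran most like those of each gene were found by the root-mean-square difference of log2(normalised read count + 1) over the 6 libraries, after each gene was centred on its own mean. Genes were not scaled by their spread, so this measure largely reflects the difference between the groups, on which the table was selected. Nearest to CYP1A1 were RNU6-431P (0.32), PRUNE2 (0.37) and KCNK6 (0.40), against a median of 0.80 over the table. RNU6-431P rested on 15 reads in DMSO and 63 with ginkgolic acid. Nearest to CYP1B1 were TPSP2 (0.09), SEC24D (0.09) and GCOM1 (0.10), against a median of 0.43. SEC24D is the one with a level near that of CYP1B1, at 872 ± 24.8 in DMSO and 2144 ± 62.2 with ginkgolic acid (SD, n = 3 each). CYP1B1 had rank 57 by likeness to CYP1A1, at a difference of 0.60. Thus 56 genes ran closer to CYP1A1 than CYP1B1 did. The measure takes in the unlike log2 differences of CYP1A1 (2.41) and CYP1B1 (1.46) and the counting error of 30 CYP1A1 reads in DMSO.

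Nearest to KYNU were DUSP6 (0.05), ANXA10 (0.05) and PDF (0.07), against a median of 1.17. That median covers the whole table, of which 62.8% was higher, the direction opposite to KYNU. The log2 differences were -1.17 for KYNU, -1.14 for DUSP6, -1.10 for ANXA10 and -1.20 for PDF, so nearness here means a like fold. DUSP6 had 1200.1, 1305 and 1264 normalised read counts in the DMSO libraries and 659, 539 and 521 with ginkgolic acid. ANXA10 had 4079, 4269 and 4352 in the DMSO libraries and 2189.6, 1997 and 1744 with ginkgolic acid. PDF had lower levels, at 175 ± 14.4 in DMSO and 76.1 ± 7.63 with ginkgolic acid (SD, n = 3 each).

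Other genes of the table lay within 1 Mb of 2 of the 3 genes. SEMA7A, at 286 kb from CYP1A1 (chromosome 15, 74409289 to 74433958), had 46.5 ± 5.71 normalised read counts in DMSO and 118 ± 1.98 with ginkgolic acid. CSPG4, at 949 kb from CYP1A1 on the other side, had 27.7 ± 10.2 and 85.8 ± 10.1. SOS1, at 871 kb from CYP1B1 (chromosome 2, 38981396 to 39124345), had 1804 ± 35.9 and 3776 ± 86.0, and the transcript SOS1-IT1 inside it 13.5 ± 0.925 and 35.2 ± 9.04. All 4 were higher with ginkgolic acid and had no overlap between the groups, in a table where 62.8% of genes were higher and 98.3% had no overlap. KYNU had no gene of the table within that distance.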

How the data were processed

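RNA-seq was done on HCCLM3 cells with ginkgolic acid or DMSO, 3 libraries each, and groups and replicate numbers come from the sample titles. Per the submitters' processing notes, the tools were DESeq2 1.20.0, featureCounts 1.5.0-p3, HISAT2 2.0.5, fastp and CASAVA 1.8, and the build was hg38. Their settings were not given in the sources used here. Per library, the authors deposited a signal with no unit stated in the comparison table used here. Within 1e-06, the values of a library were all whole multiples of 1 step, as counts divided by a size factor would be (size factors 0.921 to 1.14), so they are called normalised read counts. The reads per library over these genes ran from 67006 to 98627, and total depth is unknown. The deposited table also holds, per the file headers, log2 fold changes, p-values before and after adjustment and gene lengths. A table headed FPKM repeats the same values and was not used. That heading is at odds with values that are whole multiples of 1 step in each library.

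The 3 genes and all lists were chosen with earlier results of these data known. Named genes were the 3 genes, the list genes in the table, the 3 genes most like each in pattern, and table genes within 1 Mb. The table was fitted with limma 3.58.1 in R 4.3.3 on log2(value + 1) with an intensity trend and Benjamini-Hochberg adjustment over 403 genes needing a mean of at least 1, and the fit was tested on simulated data. It serves as background, and no p-value of a chosen gene is given. Intervals are exact 95% binomial intervals on reads. Gene models are GENCODE 29, whose positions equalled those of all 403 genes. No pair of libraries of a group agreed within sampling noise (chi-square test of reads), and all 6 were kept. Alternatives changed the pseudocount, filter, scaling, replicate block, set of libraries, gene length and promoter window. Python 3.11.15 was used for the remaining steps, with scipy 1.17.1, numpy 2.4.6, matplotlib 3.10.9 and pandas 2.3.3.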

Additional observations from a re-analysis of the deposited data

How the results depend on the processing

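CYP1A1, CYP1B1 and KYNU kept their direction under every alternative run. Rescaling by the median ratio over the table gave log2 differences of 1.56, 0.56 and -2.07 and 61 genes called higher. This scaling takes genes selected for their change as the reference. A minimum mean of 50 left 173 genes to test, 109 higher and 64 lower, and removed CYP1A1. Leaving out each library in turn gave log2 differences of 2.23 to 2.73 for CYP1A1, 1.41 to 1.503 for CYP1B1 and -1.23 to -1.10 for KYNU, with 250 to 253 higher and 148 to 150 lower genes. The highest value of CYP1A1 was that without DMSO replicate 3. Pseudocounts of 0.1 and 5 gave 2.53 and 2.03 for CYP1A1. With the replicate block the counts were again 253 and 150 and the 3 log2 differences were as before. Deviations of same-numbered libraries correlated at -0.03, 0.00 and -0.07 across genes, and no library correlated best with its own number in the other group, so the numbers are not taken to pair the libraries. Gene length moved the levels per kb: with the longest principal transcripts CYP1B1 was at 276 and KYNU at 221 in DMSO, and the shortest ones put KYNU above CYP1B1 there. Low counts of CYP1A1 in DMSO, 30 reads in all, limit how precisely its fold is known. A planned count model on reads was not run. The lengths by transcript were chosen after the data were seen.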

Other observations

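Enzymes of drug metabolism outside the lists were looked for by symbol after the values were seen, so they are given as values only. GSTM2, a glutathione transferase, had 13.0, 7.63 and 9.98 normalised read counts in the DMSO libraries and 28.6, 29.3 and 27.2 with ginkgolic acid. SULT1B1, a sulfotransferase of phenols, had 55.1, 41.9 and 43.9 in the DMSO libraries and 131, 118 and 128 with ginkgolic acid. Both were higher in every ginkgolic acid library than in any DMSO library, in a table where 98.3% of the 403 genes had no overlap. CYP2B7P, a pseudogene of the CYP2B family, closely related in sequence to CYP2B6, had 98.1, 91.5 and 94.8 in the DMSO libraries and 55.1, 46.7 and 24.6 with ginkgolic acid. It was lower in every ginkgolic acid library, and replicate 3 stood lowest.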
